A study of Mus musculus with 23 samples.

Results

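Pkm, Aldoc, Aldoa, Eno1, Ldhb and Ckb encode enzymes of glucose breakdown and of the creatine energy buffer, and their RNA was followed in the ribosome-bound RNA of astrocyte-targeted cells and in the remaining RNA of injured mouse spinal cord. The 6 genes were taken by symbol from the 9480 genes listed in either of the deposited count tables. All 6 are listed for the precipitated RNA, with 8 of 10389 transcript rows, and 5 are listed for the flow-through RNA, with 6 of 5001 rows. Pkm has 2 rows in each table, Aldoc has 2 rows for the precipitate and 1 for the flow-through, and Eno1 has no flow-through row.

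The tissue came from young adult mGFAP-Cre-RiboTag mice, whose ribosomes carry a haemagglutinin (HA) tag in cells where Cre was driven by the mouse Gfap promoter, and the genotype label of all libraries reads Wild type. Spinal cord injury (SCI) was a severe crush at thoracic level 10 in all groups, and 3 mm from the lesion's centre were taken 14 days later. The hydrogel groups also received a depot 2 days after injury. HA libraries hold the RNA precipitated with tagged ribosomes and FT libraries hold the flow-through, which the study assigns to cells other than astrocytes. There were 3 HA libraries with hydrogel and growth factors (GF), 3 HA libraries with hydrogel CT and 4 HA libraries with SCI only. The matching FT groups held 5 libraries with GF, 4 with CT and 4 with SCI only. The labels do not say what CT stands for, and they name the growth factors as FGF and EGF while the columns of the tables name BDNF and NT3, so the groups are called GF and CT here. No uninjured tissue is among the libraries analysed here, and the labels do not say whether each title number is 1 animal.

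Glycolysis breaks a hexose into trioses and ends in pyruvate. Aldolase splits the hexose, enolase makes phosphoenolpyruvate, and pyruvate kinase turns this into pyruvate while it makes ATP. Lactate dehydrogenase interconverts pyruvate and lactate, and creatine kinase moves phosphate between ATP and creatine. Aldoc encodes aldolase C and Ckb the brain-type creatine kinase, and both are known to be abundant in astrocytes. Aldoa encodes the widely expressed aldolase A, Eno1 alpha-enolase, Ldhb the heart-type lactate dehydrogenase subunit, and Pkm the pyruvate kinase of most tissues.

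Depth and composition differed between the groups. Library totals over genes ranged from 7940025 to 11279512 counts in HA GF, from 10591097 to 12604450 in HA CT and from 18497909 to 24337017 in HA SCI only. FT libraries held 40432 to 145365 counts with GF, 19607 to 85234 with CT and 2241603 to 5432938 with SCI only. Loci that collect reads of ribosomal RNA took 79.9% to 91.9% of the counts in HA GF, 48.2% to 68.5% in HA CT and 93.5% to 96.7% in HA SCI only. In FT they took 17.3% to 96.5%, 35.8% to 76.9% and 93.6% to 96.8% in the same order of treatments. Levels are therefore given as counts scaled by library size (CPM), with a size set by edgeR's TMM method, which follows the typical gene. All 12 astrocyte markers were listed for HA and 11 for FT, and 9 of the 11 compared were higher in HA. Title numbers run from 9596 to 9935 with SCI only and from 1645 to 1762 with hydrogel. The labels name no cohort, so wherever SCI only is compared, hydrogel and anything that goes with these number ranges cannot be told apart.

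Ckb had the highest level of the 6 genes in every HA group when counts of the listed rows were divided by transcript length. How reads were assigned to rows is not given, so the order is one of these counts. Its level was 504 ± 88.6 CPM per kb in HA GF, 260 ± 101 in HA CT and 650 ± 172 in HA SCI only (SD, n = 3, 3 and 4). Aldoc followed with 21.5 ± 7.53, 33.6 ± 23.1 and 13.6 ± 4.95 CPM per kb, and Ldhb had 20.3 ± 5.78, 17.7 ± 11.1 and 9.93 ± 1.14 CPM per kb in the same groups. Ckb lay above all other members in each HA group with no overlap, whereas the libraries of Aldoc and Ldhb overlapped in each. Aldoa had 1.15 ± 0.304, 2.34 ± 0.205 and 0.965 ± 0.502 CPM per kb. Pkm had 0.0436 ± 0.0553 CPM per kb in HA GF, 1.30 ± 1.22 in HA CT and 5.40 ± 3.46 in HA SCI only. Its place in the order thus differed by group, below Aldoa with no overlap in GF and above Aldoa with no overlap in SCI only. Eno1 stood at 0.136 ± 0.111, 0.126 ± 0.105 and 0.232 ± 0.261 CPM per kb, and it overlapped with Pkm in HA GF and with Aldoa in HA SCI only.

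In FT, Ckb again had the highest mean, with 120 ± 112 CPM per kb with GF, 158 ± 160 with CT and 294 ± 43.2 with SCI only (SD, n = 5, 4 and 4). Aldoc had 22.4 ± 32.0, 37.9 ± 31.2 and 13.5 ± 7.04 CPM per kb, and Ldhb had 29.2 ± 42.9, 22.1 ± 16.1 and 19.1 ± 10.3. Aldoa had 5.36 ± 7.35, 7.69 ± 8.89 and 7.85 ± 2.16 CPM per kb. Pkm had 5.07 ± 5.81 CPM per kb with GF, 0 in all CT libraries and 13.0 ± 8.79 with SCI only. Ckb stood clear of the other members in FT SCI only, where Ldhb, Aldoc, Pkm and Aldoa overlapped, and it overlapped with Aldoc and Ldhb in both hydrogel groups. The FT hydrogel values rest on few counts, given per gene below.

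**Figure D1:**
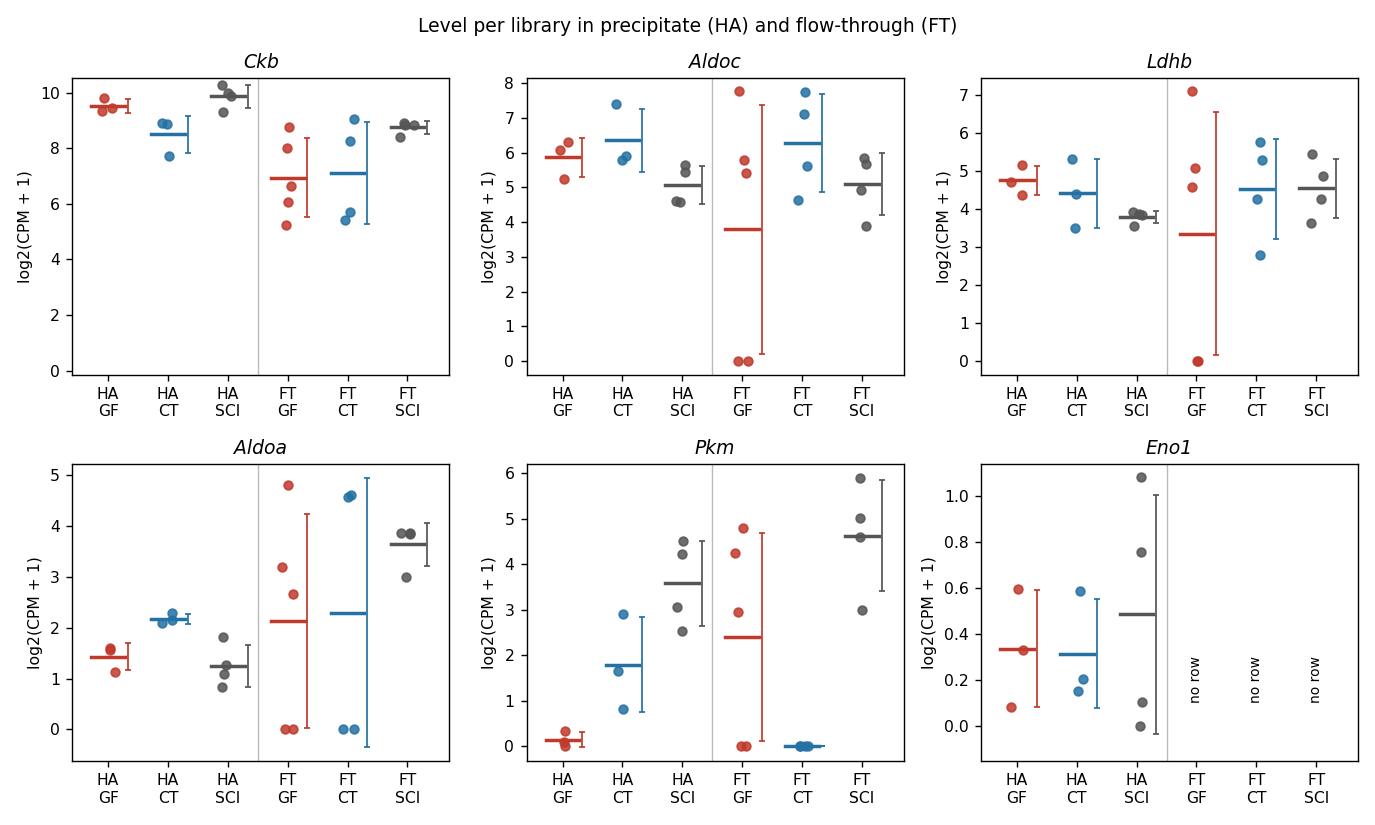
Level of each gene per library as log2(CPM + 1), for HA on the left and FT on the right of each panel, with growth factors (GF, red), hydrogel CT (blue) and SCI only (grey). Points are libraries, lines are means and bars are SD over 3 to 5 libraries, and each fraction was scaled on its own. Pkm libraries with GF sit at or below 0.258 CPM in HA, against 4.82 to 21.8 CPM in HA with SCI only, and Eno1 has no FT row.

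Comparing HA with FT asks which of these RNAs were enriched with the tagged ribosomes. Ckb, Aldoc and Ldhb were higher in HA, whereas Pkm and Aldoa did not pass the test. The comparison used the 10 title numbers with a library in both fractions, scaled together over the 4781 genes listed in both tables, and levels in this comparison are on that joint scale. In bulk RNA, fewer cells of a type and less RNA per cell cannot be told apart.

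Ckb ranged from 350 to 2420 CPM in HA (median 1192), against 26.0 to 223 CPM in FT (median 129). The fractions did not overlap, and HA was higher in 10 of 10 pairs. The log2 difference was 3.48 (SE 0.38, adjusted p = 2.61e-08, edgeR's quasi-likelihood test with Benjamini-Hochberg adjustment over 3295 genes). Aldoc ranged from 43.2 to 272 CPM in HA (median 92.1), against 0 to 81.1 CPM in FT (median 21.6). HA was higher in 10 of 10 pairs although the fractions overlapped, and 1 FT library was at 0. The edgeR log2 difference of Aldoc was 2.09 (SE 0.42, adjusted p = 0.000354). Ldhb ranged from 17.2 to 63.0 CPM in HA (median 28.9), against 0 to 22.5 CPM in FT (median 11.2), again with HA higher in 10 of 10 pairs and with overlap. Its edgeR log2 difference was 1.49 (SE 0.44, adjusted p = 0.0143). Thus 3 of the 5 members tested were higher in HA, where 13.2% of all 3295 genes were higher and 20.6% were called in either direction.

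Aldoa ranged from 1.55 to 6.29 CPM in HA (median 3.37), against 0 to 14.8 CPM in FT (median 5.18). It was higher in HA in 2 of 10 pairs, with a log2 difference of -0.61 (SE 0.58, adjusted p = 0.508, edgeR). Pkm ranged from 0 to 42.6 CPM in HA (median 6.17), against 0 to 26.2 CPM in FT (median 3.05). It was higher in HA in 6 of 10 pairs, with a log2 difference of 0.28 (SE 0.84, adjusted p = 0.861, edgeR), and the sign turned without title number 1759 or 9935 and with plain library totals. The aldolases therefore stood on opposite sides of 0, with a call for Aldoc alone. Relative to the median of all genes tested, which was 0.28, the differences were 3.19 for Ckb, 1.81 for Aldoc, 1.21 for Ldhb, -0.0057 for Pkm and -0.89 for Aldoa. With ribosomal RNA loci left out and plain library totals, that median was -0.60, and the calls of Aldoc (log2 difference 1.09, adjusted p = 0.0800) and Ldhb (0.49, adjusted p = 0.520) were lost. That left 1 of 5 members called, where 20% of all genes were. Relative to that median the 2 genes still differed by 1.69 and 1.10.

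**Figure D2:**
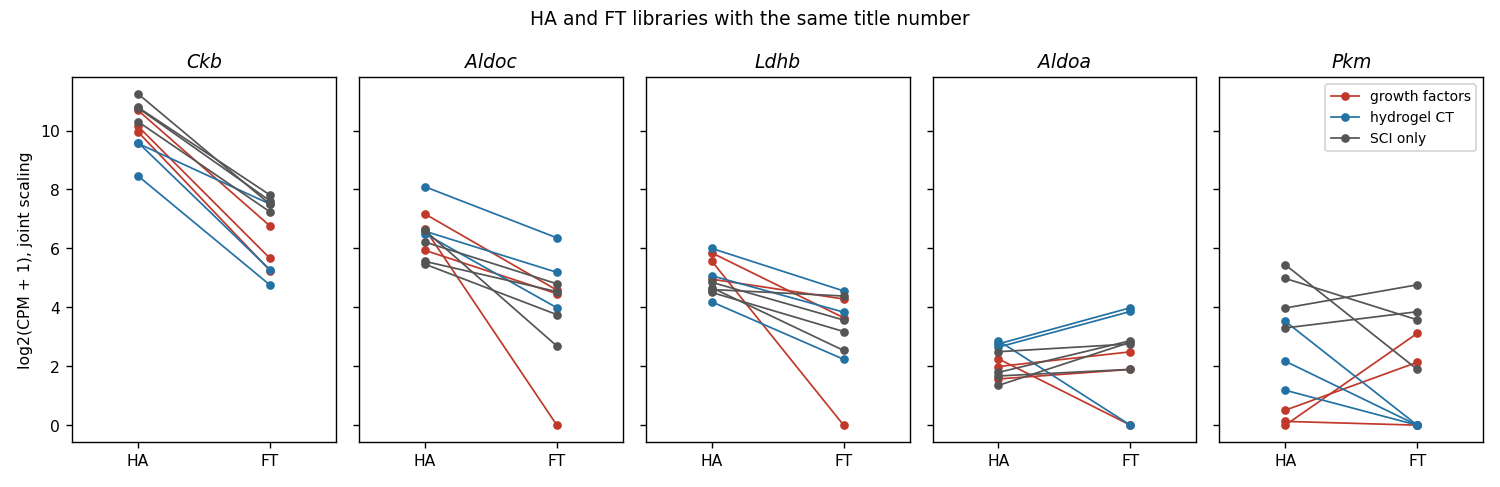
Level of 5 genes in the HA (left) and FT (right) library of each of 10 title numbers, as log2(CPM + 1) on the scale shared by both fractions. Lines join libraries of 1 title number with growth factors (red), hydrogel CT (blue) or SCI only (grey). All 10 lines fall towards FT for Ckb, Aldoc and Ldhb, while 4 of 10 rise for Pkm.

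Marker genes differed between the fractions too, on the same joint scale. The summed level of 11 astrocyte markers was 4293 to 9133 CPM in HA and 252 to 2316 CPM in FT. Markers of the oligodendrocyte lineage were enriched in HA as well. The summed level of 6 listed oligodendrocyte progenitor markers (of 8, without Pdgfra and Lhfpl3) was 264 to 851 CPM in HA and 23.1 to 160 CPM in FT, with no overlap, and 5 of 6 were higher in HA. Among them the log2 difference was 3.40 for Olig2, 3.30 for Gpr17 and 3.17 for Olig1 (adjusted p = 3.00e-06, 1.12e-05 and 1.46e-07, edgeR), against 3.48 for Ckb, 2.09 for Aldoc and 1.49 for Ldhb. That of 9 oligodendrocyte markers was 917 to 2233 CPM in HA and 144 to 1258 CPM in FT, and 3 of 9 were higher in HA, namely Mag (2.26), Cldn11 (1.43) and Mal (1.25). The HA fraction was thus enriched in RNA of more than astrocyte markers. That of 10 microglia and macrophage markers was 24.0 to 946 CPM in HA and 92.9 to 8220 CPM in FT, with Csf1r and Aif1 in neither table, and 8 of the 9 tested were lower in HA. That of 8 neuron markers was 46.9 to 303 CPM in HA and 310 to 1638 CPM in FT, with 5 of 8 lower in HA. The part of these cell types in the differences of the 6 genes was not tested.

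Within each treatment, Ckb was higher in HA than in FT, by a log2 difference of 4.33 with GF (SE 0.68, adjusted p = 0.000177), 2.97 with CT (SE 0.64, adjusted p = 0.00699) and 3.26 with SCI only (SE 0.55, adjusted p = 0.000365, edgeR). For Aldoc the values were 2.72 (SE 0.81, adjusted p = 0.0225), 1.82 (SE 0.75, adjusted p = 0.190) and 1.89 (SE 0.64, adjusted p = 0.0760). For Ldhb they were 2.01, 1.54 and 1.12, and none passed. Called in either direction were 12.9% of all genes with GF, 2.19% with CT and 5.58% with SCI only. Whether the HA to FT difference itself varied between treatments was tested in edgeR as an interaction, and none of the 5 members passed, nor did any of the 3295 genes, of which 10.7% had an unadjusted p under 0.05. Pkm had the smallest interaction p of the 5 (unadjusted edgeR quasi-likelihood p of 0.00368, adjusted p = 0.263). Its HA minus FT difference was -3.93 with GF (SE 1.46) and 0.82 with SCI only (SE 0.90). The GF value rests on 1, 0 and 3 counts in HA against 0, 1 and 5 counts in FT. With CT all 3 FT libraries compared were at 0.

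Among the treatments, the comparisons ask whether these RNAs differed between groups. Against SCI only, hydrogel and the ranges of title numbers cannot be told apart. Pkm was lower in HA with GF than in HA with SCI only, and no other member passed the test in any comparison of treatments within a fraction. In HA 5 members were tested, since Eno1 had too few counts, and in FT only Aldoc and Ckb were. Of all genes tested, 0.436% were called in HA GF against SCI only, and 0.105% were called as lower. Where groups are said not to overlap, this describes the libraries only, since the share of all genes with such groups was not counted.

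Pkm had 1, 0 and 3 counts in the HA GF libraries (0.0609, 0 and 0.258 CPM), against 34, 309 and 168 counts in HA CT (0.766, 6.45 and 2.16 CPM) and 236, 38, 42 and 78 counts in HA SCI only (17.7, 7.33, 4.82 and 21.8 CPM). Every GF library lay below every CT and every SCI only library, whereas CT and SCI only overlapped. At the mean level of HA SCI only, taken as exact, the GF libraries would have held 212, 50.5 and 150 counts. The log2 difference of GF against SCI only was -6.66 (SE 1.39, adjusted p = 0.0411, edgeR's quasi-likelihood test over 6654 genes). GF against CT gave -4.62 (SE 1.31, adjusted p = 0.250), and CT against SCI only gave -2.04 (SE 1.04, adjusted p = 0.437). These comparisons share groups, so they are not independent of each other.

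The Pkm difference between GF and SCI only kept its direction in all alternatives run, while its adjusted p fell on both sides of the threshold. Over the alternatives run, the log2 difference ranged from -7.95 to -6.24 and the adjusted p from 6.56e-06 to 0.149. The call was lost with plain library totals (adjusted p = 0.0776), with transcript rows in place of sums per gene (0.0535) and with 2 groups in the fit (0.0676). It was also lost without GF library 1685 (0.0672) and without SCI only library 9596 (0.0912), 9843 (0.110), 9874 (0.149) or 9935 (0.125). DESeq2 also called Pkm in GF against CT (adjusted p = 0.0167), where it called 4.39% of all genes, against 0.0902% in edgeR. In GF against SCI only DESeq2 called 10.7% of all genes.

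**Figure D3:**
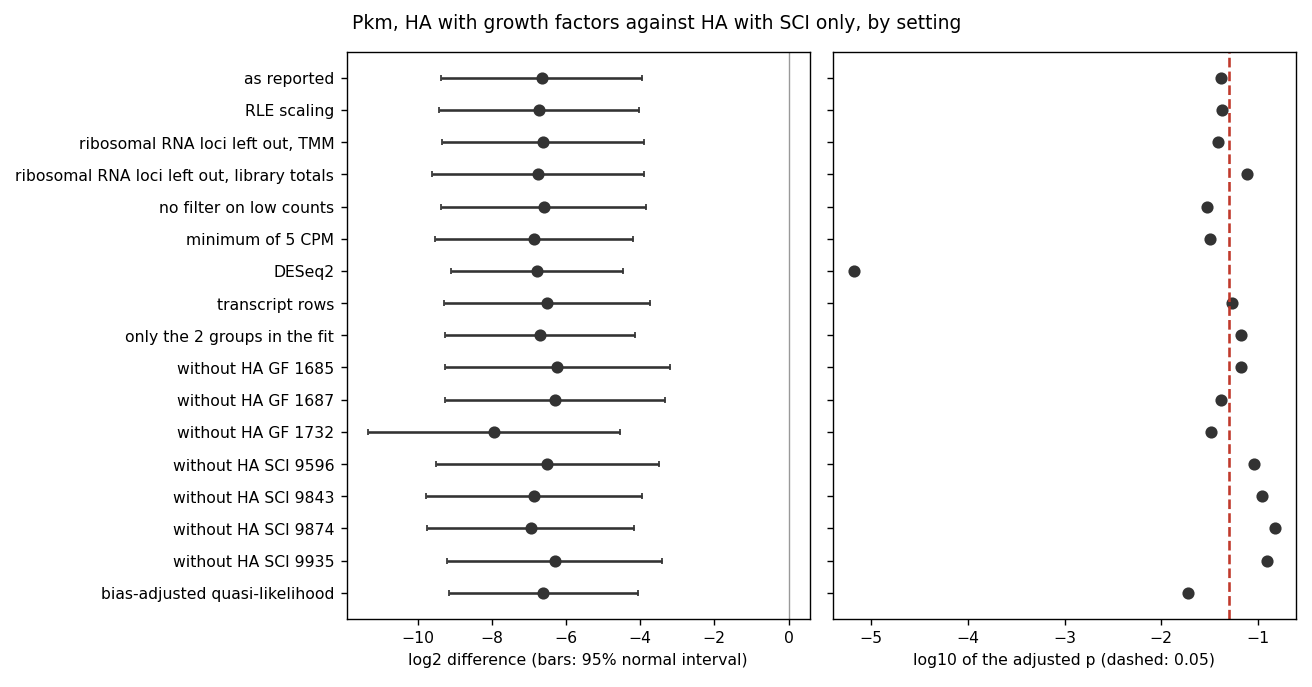
Pkm in the HA libraries, GF against SCI only, under each setting (rows): log2 difference with 95% normal intervals on the left, and log10 of the adjusted p on the right with 0.05 as a dashed line. All differences lie between -7.95 and -6.24, while the adjusted p falls on both sides of the line.

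Other measures were read in the same HA groups. Ribosomal RNA loci took a smaller share in HA GF than in HA SCI only, as given above. Their smallest share was in HA CT. The summed level of 10 listed microglia and macrophage markers (of 12, without Csf1r and Aif1) was 65.0 to 90.1 CPM in HA GF, 14.8 to 101 in HA CT and 62.1 to 516 in HA SCI only. These ranges overlapped, and the medians were 80.5, 53.6 and 132 CPM in the same order. No listed marker was at 0 in a whole group, and 8 of 10 had a negative difference between GF and SCI only, with none past the threshold. The largest was -4.99 for Laptm5 (SE 1.49, adjusted p = 0.108, edgeR), while Cd68 (1.75) and Ctss (1.15) were positive. The summed level of 12 astrocyte markers was 3522 to 4814 CPM in HA GF, 3000 to 5631 in HA CT and 2299 to 3285 in HA SCI only. The part of these loci and markers in the Pkm result was not tested.

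The 2 Pkm rows are transcripts of chromosome 9, ENSMUST00000163694 (Pkm-202) and ENSMUST00000034834 (Pkm-201). Both span 11 exons and differ within the coding sequence in exon 9, where splicing takes one of a mutually exclusive pair. They differ at the ends too, where Pkm-201 has 205 more bases in exon 1 and 186 more in exon 11. The upstream exon makes the PKM1 enzyme, known from adult muscle and brain, and the downstream exon makes PKM2, known from proliferating and many other cells. The pair of exons is shown because it is the coding sequence that sets the rows apart, with capitals at the bases that differ and 5′ to 3′ on the plus strand. Pkm-202 takes chr9:59675029-59675195 and Pkm-201 takes chr9:59675568-59675734 in GENCODE M21 on mm10.
Pkm-202 exon 9: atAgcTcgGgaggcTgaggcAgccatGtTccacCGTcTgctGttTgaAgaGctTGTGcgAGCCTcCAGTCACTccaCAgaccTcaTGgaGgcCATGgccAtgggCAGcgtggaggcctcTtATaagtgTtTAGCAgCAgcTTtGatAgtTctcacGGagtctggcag
Pkm-201 exon 9: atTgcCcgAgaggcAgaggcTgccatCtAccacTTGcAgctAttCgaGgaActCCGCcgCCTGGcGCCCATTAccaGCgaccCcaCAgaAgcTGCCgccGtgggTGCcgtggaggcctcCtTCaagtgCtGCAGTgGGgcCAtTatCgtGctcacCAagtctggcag
Each exon has 167 bases, of which 103 (61.7%) are the same at the same position and 64 differ. All other coding exons are shared, and how the authors assigned reads of shared exons to a row is not given in the sources used here, so the row counts are their assignment and not a direct count of exon 9 reads. Reads in the 391 end bases found only in Pkm-201 could fall to that row without covering exon 9, and the row shares are to be read with that limit.

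The Pkm-201 (PKM2) row held most Pkm counts in HA. It had 4 of 4 counts in GF, 486 of 511 in CT and 370 of 394 in SCI only. Over all HA libraries the Pkm-202 (PKM1) row held 49 of 909 counts (5.39%, exact 95% binomial interval 4.01% to 7.06%), against 31 of 82 in FT (37.8%, 27.3% to 49.2%). These intervals cover counting error only, and single libraries varied more. In HA the share was 26.5% in CT library 1724 and 20.5% in SCI only library 9935, and at most 7.14% in the other libraries with Pkm counts. In FT with SCI only it was 23 of 74 counts (31.1%), and 18 of those 23 came from library 9596. The other FT counts of the PKM1 row were all from GF.

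**Figure D4:**
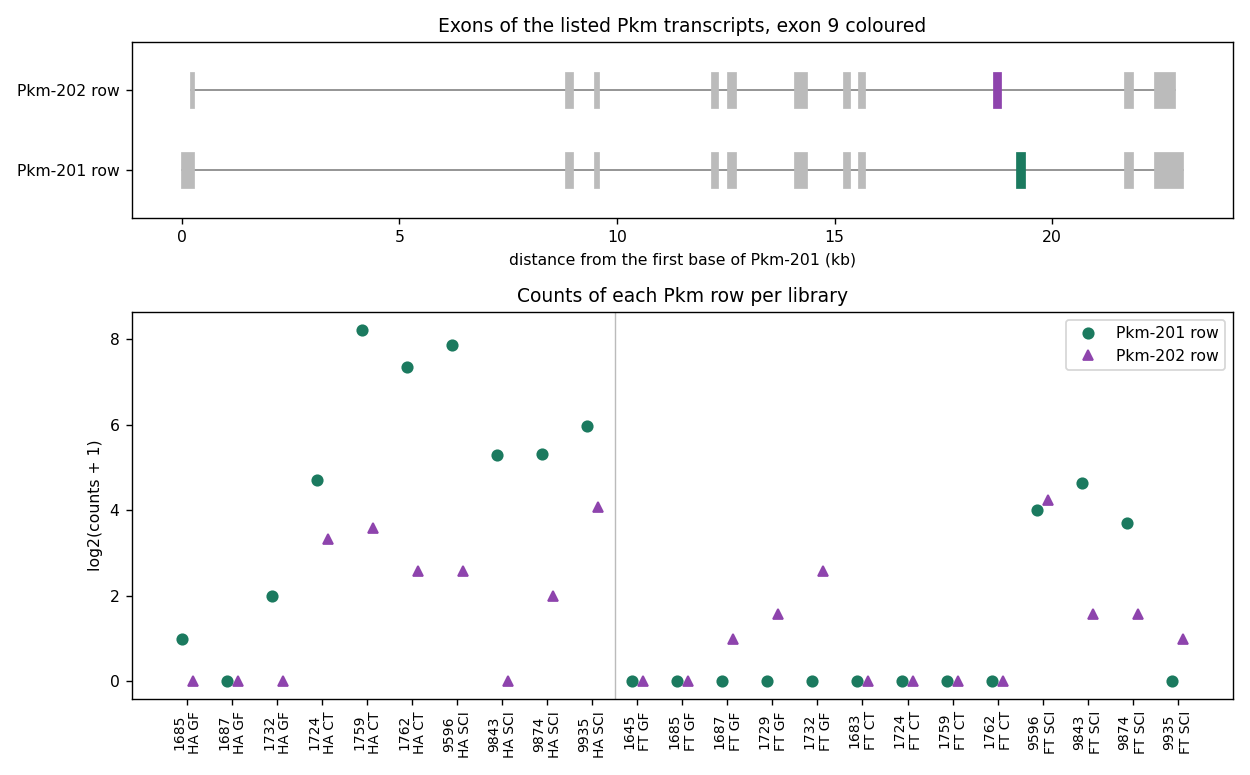
Top, exons of the 2 listed Pkm transcripts by distance in kb from the first base of Pkm-201, with exon 9 coloured. Bottom, log2(counts + 1) of the Pkm-201 row (circles) and the Pkm-202 row (triangles) in each library, HA left and FT right of the line. The Pkm-201 row stands above the Pkm-202 row in 9 of 10 HA libraries, and it is at 0 in all 9 hydrogel FT libraries.

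In FT the Pkm-201 row had 0 counts in all 5 GF and all 4 CT libraries, against 15, 24, 12 and 0 counts with SCI only. The Pkm-202 row had 0, 0, 1, 2 and 5 counts with GF and 0 in all CT libraries, against 18, 2, 2 and 1 with SCI only. Summed over a group, 0 counts of the Pkm-201 row allow up to 2.94 CPM with GF and 4.48 CPM with CT (3 counts per group, counting error only), against 20.8 CPM with SCI only. In these sums the row was at least 7.09-fold lower with GF and at least 4.65-fold lower with CT, although 1 SCI only library was at 0 too. The bounds take the SCI only level as exact and hold for TMM scaling only, whose factors ran from 0.0644 to 9.05 in FT. No other scaling was tried for them. Both bounds rest on single libraries, as seen when each was left out, a check added after the data were seen. GF library 1732 held 72.8% of the scaled size of its group, and without it the bound was 1.93-fold. CT library 1759 held 49.6%, and without it the bound was 2.34-fold. Without SCI only library 9843 the bounds were 4.58-fold with GF and 3.00-fold with CT, and without 9596 they were 11.9-fold and 7.82-fold. Pkm did not pass the filter on low counts in FT, so it has no test here. In the authors' deposited table the Pkm-201 row had a log2 fold change of -5.91 in FT for GF against SCI only (false discovery rate 0.0102) and of -5.91 for CT against SCI only (0.0288). Both hydrogel groups had 0 counts of this row and the same fold change, so its size is not a measured ratio. With no filter, or with a minimum of 5 CPM, edgeR called Pkm as lower in FT CT against SCI only (log2 difference -6.28 and -6.27, adjusted p = 0.0342 and 0.0262), where 3.04% and 3.84% of all genes were called. All FT CT libraries had 0 Pkm counts, so the size of these 2 differences is not a measured ratio either. For FT GF against SCI only the same settings gave Pkm -1.85 and -1.82 (adjusted p = 0.307 and 0.343), neither past the threshold. The summed level of the 10 listed microglia and macrophage markers in FT was 80.8 to 2364 CPM with GF, 214 to 4379 with CT and 7494 to 18505 with SCI only, with no listed marker at 0 in a group, and its part in the Pkm counts was not tested.

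For HA, the authors' deposited table gave the Pkm-201 row a log2 fold change of -6.44 for GF against SCI only (false discovery rate 0.00218), and the Pkm-202 row -7.73 (0.0622). The Pkm-202 row had 0 counts in HA GF, so the size of its fold change is not a measured ratio. The transcript fit made here gave -6.52 for the Pkm-201 row (SE 1.41, adjusted p = 0.0535, edgeR over 6757 rows). Between fractions, the Pkm-201 row alone differed by 1.66 (SE 0.81, adjusted p = 0.151, edgeR), against 0.28 for the sum of both rows.

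Ckb had 647, 891 and 688 CPM in HA GF, 211, 473 and 465 CPM in HA CT, and 1018, 626, 946 and 1237 CPM in HA SCI only. The CT libraries were the lowest and overlapped with neither other group, while GF and SCI only overlapped. The log2 difference was 0.96 for GF against CT (SE 0.44, adjusted p = 0.356), -1.32 for CT against SCI only (SE 0.42, adjusted p = 0.204) and -0.37 for GF against SCI only (SE 0.41, adjusted p = 0.643), all from edgeR. None passed, with 0.0902% of all genes called in the first and 0.195% in the second comparison. With plain library totals the GF to CT difference was 0.072, but relative to the median of all genes it was 1.09, against 1.10 as reported. The summed level of the 6 oligodendrocyte progenitor markers was also lowest in HA CT, at 302 to 452 CPM in HA GF, 163 to 256 in HA CT and 339 to 456 in HA SCI only, and its part in the Ckb values was not tested. In FT, Ckb had 1, 8, 14, 32 and 73 counts with GF, 20, 7, 17 and 40 with CT and 674, 149, 203 and 66 with SCI only. On the FT scale these were means of 177 ± 165, 233 ± 235 and 432 ± 63.6 CPM (SD, n = 5, 4 and 4). FT GF and FT CT overlapped with SCI only, and the differences from SCI only were -1.28 and -0.99, which turned to 0.34 and 0.71 with plain library totals. That scaling moved the median of all genes to 1.41 and 1.43, and relative to the median Ckb was -1.06 and -0.72, against -1.29 and -0.97 as reported. None passed, with 3.77% and 3.11% of all genes called.

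Aldoc had 65.7, 77.5 and 36.7 CPM in HA GF, 53.8, 58.3 and 168 CPM in HA CT, and 42.3, 23.0, 23.5 and 49.4 CPM in HA SCI only. All CT libraries were above all SCI only libraries, with a log2 difference of 1.43 (SE 0.56, adjusted p = 0.302, edgeR), and GF overlapped with both. CT library 1762 was the highest, and the GF to CT difference was 0.092 without it, against -0.64 with it. The row of the full transcript, Aldoc-201, held counts in all 10 HA libraries. The second row, the retained-intron transcript Aldoc-205, had 11 and 2 counts in HA CT libraries 1759 and 1762, 28 and 8 in SCI only libraries 9596 and 9843, and 0 elsewhere. FT libraries had 0, 0, 3, 16 and 31 Aldoc counts with GF, 8, 4, 16 and 18 with CT, and 81, 22, 13 and 2 with SCI only. Their groups overlapped, and no FT difference of Aldoc or Ckb passed.

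Ldhb had 19.7, 25.3 and 34.6 CPM in HA GF, 10.3, 20.1 and 38.8 CPM in HA CT, and 13.5, 10.8, 13.3 and 14.2 CPM in HA SCI only. GF libraries were all above SCI only libraries, with a log2 difference of 1.03 (SE 0.62, adjusted p = 0.352, edgeR), and CT spanned both. The GF to CT difference was 0.20 and turned negative with plain library totals (-0.68), without GF library 1732 (-0.073) and without CT library 1724 (-0.17). FT libraries had 0, 4, 0, 10 and 17 Ldhb counts with GF, 2, 1, 6 and 5 with CT, and 60, 8, 5 and 4 with SCI only, too few for the test in FT.

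Aldoa had 1.95, 2.04 and 1.20 CPM in HA GF, 3.47, 3.86 and 3.25 CPM in HA CT, and 1.42, 0.772, 2.52 and 1.12 CPM in HA SCI only. CT libraries were the highest and overlapped with neither other group. The log2 difference was -1.03 for GF against CT (SE 1.17, adjusted p = 0.726) and 1.26 for CT against SCI only (SE 1.08, adjusted p = 0.639), neither past the threshold in edgeR. FT libraries had 0 to 4 Aldoa counts with GF, 0 to 4 with CT and 1 to 19 with SCI only.

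Eno1 had 1, 2 and 3 counts in HA GF, 5, 24 and 12 in HA CT, and 1, 0, 6 and 4 in HA SCI only. The groups overlapped on the CPM scale and the gene was not tested. Its transcript shares 99.4% of its coding bases (1297 of 1305) with Eno1b, a separately listed gene, so reads could have been placed on either. Eno1b had 28 counts in HA GF, 1236 in HA CT and 126 in HA SCI only, more than Eno1 in each group. By comparison, Aldoa and Aldoc share 75.5% of their coding bases.

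**Figure D5:**
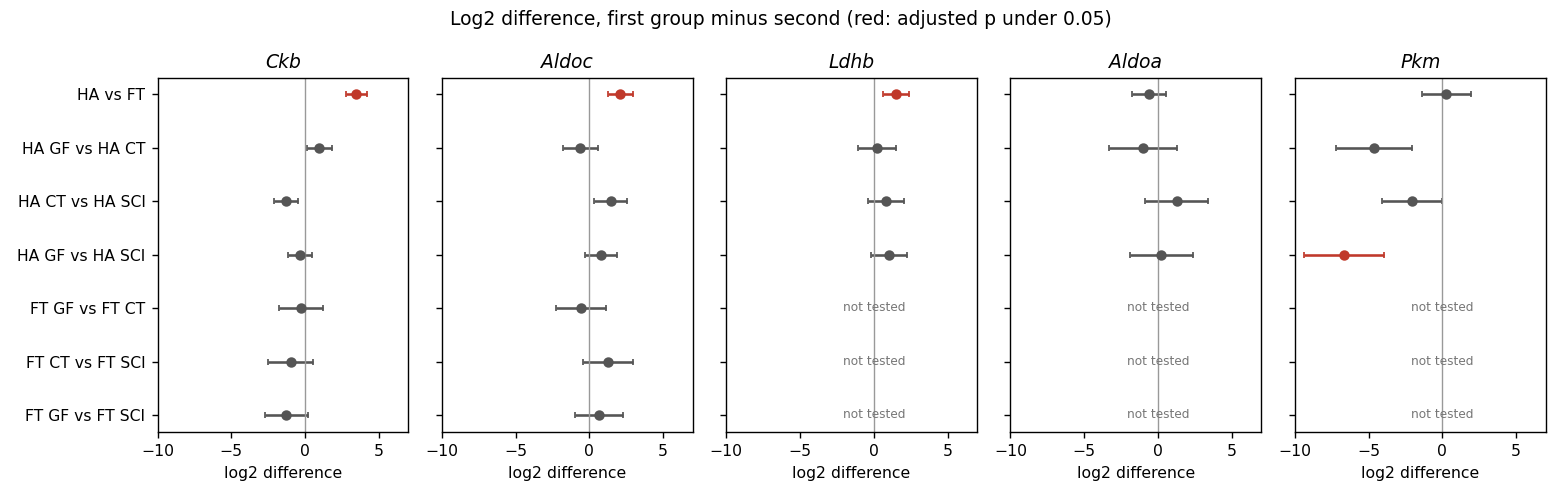
Log2 difference, first group minus second, with its 95% interval for 5 genes in the HA to FT comparison and in each comparison of treatments. Red points have an adjusted p under 0.05 (edgeR over all genes), which holds for Ckb, Aldoc and Ldhb in HA against FT and for Pkm in HA GF against HA SCI only. Pkm, Aldoa and Ldhb were not tested within FT.

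Other genes of energy metabolism were read from lists of related enzymes. In HA against FT, 1 of 4 other glycolytic enzymes tested was higher, namely Pfkl, a phosphofructokinase subunit (1.93, SE 0.66, adjusted p = 0.0339, edgeR). Of 2 glucose and lactate transport genes, Slc16a1, a monocarboxylate transporter, was higher (1.57, SE 0.52, adjusted p = 0.0276). Pdk2, a kinase that inhibits pyruvate dehydrogenase, was the only one of 7 regulators to pass (2.10, SE 0.44, adjusted p = 0.000529). Among 3 glycogen genes Pygb, the brain glycogen phosphorylase, passed (2.21, SE 0.42, adjusted p = 0.000201). Gatm, which makes a creatine precursor, was the single creatine gene tested beside Ckb and did not pass (1.04, SE 0.40, adjusted p = 0.0656). No gene of these lists was lower in HA. Over these lists 4 of 17 genes tested were higher (23.5%), against 13.2% higher and 20.6% called in either direction over all genes, so the count is near the background. The list medians were 0.49, 1.34, 0.78 and 1.67, against 0.28 over all genes.

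Between treatments none of these genes passed in HA, and none of the 2 tested in FT did. Tested in HA were 7 glycolytic, 3 transport or lactate dehydrogenase, 12 regulator, 2 creatine and 7 glycogen genes. For HA GF against SCI only the medians were -1.13, 1.27, 1.09, 0.66 and 0.44, against 0.12 over all genes. The 3 genes behind the second median differed in sign, with Slc16a1 at 1.27, Ldha at 1.37 and the glucose transporter gene Slc2a1 at -2.10. Gapdh, Ldha and Pgk1 had low CPM in these counts, and how reads were assigned to rows is not given. Gapdh had 2.97 ± 1.06 CPM in HA GF, 1.19 ± 0.414 in HA CT and 4.35 ± 0.639 in HA SCI only. Ldha, the other lactate dehydrogenase subunit, had 2.54 ± 3.33, 1.06 ± 0.0513 and 0.967 ± 0.333 CPM. Pgk1, phosphoglycerate kinase, had 1.03 ± 0.889, 0.407 ± 0.217 and 0.0374 ± 0.0748 CPM (SD, n = 3, 3 and 4 throughout).

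Across the 10 HA libraries the members did not move as a block. Pearson's r of log2 CPM was 0.64 for Aldoc with Ldhb and 0.54 for Aldoc with Aldoa, but -0.58 for Aldoa with Ckb and -0.47 for Pkm with Ldhb. These values describe 10 libraries that differ in treatment and depth. Of the 6653 other genes tested in HA, those most like Pkm were Dhrs1 (r = 0.96), Cdk5 (0.95) and Lrrc24 (0.95). Ckb was most like Gm12892 (0.97), Itm2c and Hotairm1, Ldhb most like Pak2 (0.93), Ak3 and Sdhc, Aldoc most like Acat1 (0.91), Abat and Twf1, and Aldoa most like Tceal5 (0.90), Smc5 and Ipo11.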

How the data were processed

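Per the labels' protocols, 5 ng of HA or FT RNA was amplified as cDNA for paired-end sequencing. The tools named per the submitters' processing notes were CASAVA 1.8.2 and edgeR, with build mm10. The aligner, counting method, strand setting and annotation were not given in the sources used here. The authors deposited whole-number read counts per Ensembl transcript for HA and FT. The authors also deposited edgeR log2 fold changes with p-values and false discovery rates. A further 45 columns of per-sample values were not used.

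Counts were summed per gene symbol, leaving out 136 HA and 35 FT rows without one. Genes were tested two-sided with edgeR 4.0.16 (quasi-likelihood, TMM, filterByExpr minimum count 10) in R 4.3.3 and adjusted by Benjamini-Hochberg, with a threshold of 0.05. All 3 groups of a fraction entered 1 fit, and HA against FT had terms for treatment and fraction. DESeq2 1.42.0, other scalings, other filters, transcript rows and leaving out libraries were alternatives. The code was tested on simulated data. CPM uses the TMM-scaled library size, so its sum differs between libraries. CPM per kb divides each transcript row by its GENCODE M21 length. Depth limits FT hydrogel values to a few counts per gene. P-values measure the spread between libraries, which may be technical. Libraries of a group differed beyond sampling noise (chi-square per degree of freedom at least 4.61).

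The study takes both fractions from the same tissue, so a shared title number was taken as a pair. Correlations of the deviations of paired libraries ran from 0.00656 to 0.121, and 2 of 10 were above 0.1. The genes and lists were chosen with earlier results of these data known. Other genes of the pathway lists are named where they pass in a comparison, at most 6 a list and comparison by smallest adjusted p, with the levels of Gapdh, Ldha, Eno2 and Pgk1 where listed. For each member with at least 10 counts in at least 7 HA libraries, the 3 genes with the highest Pearson's r are named.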

Additional observations from a re-analysis of the deposited data

Results flagged for a closer look

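Of 20 groups of 4 or 5 FT and HA libraries checked per gene, 4 held a library far from the others by Dixon's test, where chance gives about 1 in 20 groups. Aldoc and Ldhb were highest in FT GF library 1729, at 215.5 CPM and 134.7 CPM on the FT scale, from 16 and 10 counts. Ckb was lowest in FT SCI only library 9843 at 337.5 CPM, from 149 counts. Aldoa was lowest in FT SCI only library 9935 at 6.97 CPM, from 1 count.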

How the results depend on the processing

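Of 497 values of the members under an alternative, 475 kept their direction and side of the threshold, 10 lost a call, 1 gained one and 11 changed sign. The bias-adjusted quasi-likelihood fit was added after the data were seen, and it kept the call of Pkm in HA GF against SCI only. With ribosomal RNA loci left out and plain library totals, the median of all genes became -1.01 for HA GF against CT, 0.86 for HA CT against SCI only, -0.17 for HA GF against SCI only, 1.43 and 1.41 for FT CT and GF against SCI only, and -0.60 for HA against FT. There, signs turned for Ldhb in HA GF against CT (-0.68), Ckb in FT CT against SCI only (0.71) and in FT GF against SCI only (0.34), and Pkm in HA against FT (-0.58). Relative to those medians the differences were 0.33 for Ldhb, -0.72 and -1.06 for Ckb and 0.018 for Pkm, against 0.34, -0.97, -1.29 and -0.0057 as reported.

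The number of members past the threshold in HA GF against SCI only was 0 with those totals, 0 with transcript rows, 0 with 2 groups in the fit, and 0 to 1 with a library left out, against 1 as reported. It was 1 of 5 with plain totals in HA against FT, where 20% of all genes were called, against 3 as reported. It was 1 in FT CT against SCI only with no filter and 1 with a minimum of 5 CPM, where Pkm entered the test, and 1 in HA GF against CT with DESeq2, against 0 as reported for both.

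With a library left out, differences that changed sign ranged from -0.17 to 0.80 for Ldhb and from -0.94 to 0.092 for Aldoc in HA GF against CT, from -0.27 to 1.10 for Aldoc in FT GF against SCI only (negative without 1729), and from -0.98 to 0.41 for Ckb in FT GF against CT (positive without 1683). For Pkm in HA against FT they ranged from -0.16 to 1.06. With the title number as a replicate block, 3 members passed in HA against FT and 0 in the interaction, and all genes gave 673 calls, against 678 without it, so the pairing changed no call of a member. No title number occurs in 2 treatments of a fraction, so treatments could not be compared with a block. Genes with few counts, among them Eno1 in HA and Pkm, Aldoa and Ldhb in FT, are limited by depth.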
